A study of Mus musculus with 2 samples.

Results

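The account concerns 9 microRNA genes of mouse hippocampal tissue, Mir139, Mir744, Mir191, Mir328, Mir151, Mir22, Mir330, Mir652 and Mir425, out of 2202 annotated microRNA genes in the files. They were chosen by their levels in these same libraries, as abundant genes outside the usual brain lists that belong to no large family and mostly sit inside other transcripts, so their abundance, their lack of relatives and their place in hosts restate that choice and are given as descriptions, with no test. Small RNA under 30 nt was sequenced from total RNA of tissue labelled as a layer of hippocampus. The tissue came from female B6CASTF1/J mice, the F1 cross of the B6 and CAST strains, aged 18 to 20 months. There are 2 libraries, labelled biological replicates 1 and 2, in 1 group with no second condition. Both name 1 donor record but different animal numbers, so nothing settles whether 2 animals were used, and the spread between the libraries may be partly technical. No treatment or genetic change is given in the labels, and which layer was taken is not stated.

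A microRNA is cut from a hairpin precursor as a strand of about the length of the reads counted here. Loaded into an Argonaute protein, it pairs through its seed, the bases near its 5′ end, with messenger RNAs and lowers their output. Many microRNA hairpins lie in introns or exons of a host transcript and are cut out of it, so that host and microRNA can be made from 1 promoter. A hairpin yields a 5p and a 3p arm, and usually 1 arm dominates.

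The mature sequences are shown to let each gene be told from its relatives. RefSeq (GRCm38.p6) held both arms for 7 of the 9 genes, 14 arms in all, of 21 to 24 bases; Mir328 and Mir151 are given by name alone. The arm of each gene commonly reported as its guide is printed with the seed (bases 2 to 8) in capitals, and both arms are given for Mir330. The counts themselves do not separate the arms.

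miR-139-5p: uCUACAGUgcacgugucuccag
miR-744-5p: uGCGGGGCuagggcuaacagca
miR-191-5p: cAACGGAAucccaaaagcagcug
miR-425-5p: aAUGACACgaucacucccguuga
miR-22-3p: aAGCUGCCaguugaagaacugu
miR-652-3p: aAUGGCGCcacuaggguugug
miR-330-5p: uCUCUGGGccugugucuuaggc
miR-330-3p: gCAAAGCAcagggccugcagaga

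No 2 of these arms share a seed, so by this measure these 7 genes are separate from each other. Mir328 and Mir151 were not compared. Of the 14 arms, 11 (78.6%) had a seed found in no other gene among 1738 mature sequences of 1058 genes, where 68.0% of all sequences did. The genes were picked as having no large family, so nothing is read from that difference. The exceptions were both arms of Mir330 and 1 arm of Mir425. These mates, shown because they carry the same capitals as miR-330-5p, miR-330-3p and miR-425-5p, differ outside the seed.

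miR-326-3p: cCUCUGGGcccuuccuccagu
miR-6240: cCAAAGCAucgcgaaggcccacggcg
miR-489-3p: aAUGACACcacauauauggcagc

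In these libraries the mates were scarce beside the genes they match. Mir326 reached 444 and 392 CPM in replicates 1 and 2, where CPM is the sense-strand count of a hairpin scaled to a library total of 1000000. Mir6240 had 4 and 6 counts. Mir489 had 0 counts in both, which allows up to 1.33 CPM in replicate 1 and 0.664 CPM in replicate 2 (3 counts, counting error only). None of the 9 hairpins shared a stretch of 20 bases with another annotated hairpin, which the choice of genes without families favours. Reads that fit several places are a separate total in the files, and copies outside the annotated hairpins were not looked for. An exact copy of a printed arm turned up elsewhere in the GENCODE M21 transcripts only in the host transcripts described below and, on the other strand, in Gm24083.

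The levels rest on 2255838 sense counts in replicate 1 and 4521208 in replicate 2. Unmapped reads made up 29.0% of replicate 1 and 11.2% of replicate 2, and multimapping reads 36.2% and 47.9%; their part in the differences between the libraries was not tested. Of the markers of the labelled tissue, the neuronal Mir132, Mir128-1, Mir137 and Mir138-1 ranged from 2386 to 38949 CPM. Mir132 (38949 and 18329 CPM in replicates 1 and 2) and Mir138-1 (3602 and 2386 CPM) were lower in replicate 2. Mir128-1 (10436 and 14980 CPM) and Mir137 (10105 and 11969 CPM) were higher there. The 3 Mir124a copies, which share a mature sequence, were at or near 0 (at most 13 counts). Mir1a-1, Mir1a-2 and Mir133a-1 of muscle had no count, and Mir122 of liver was at 14.6 and 43.1 CPM. Those muscle genes are also numbered copies. Reads that fit several places are counted at no gene, so their 0 counts cannot show that muscle was absent. Choroid plexus and ciliated cell markers (5 genes) summed to 3002 CPM in replicate 1 and 1329 CPM in replicate 2, all 5 being detected in both. Mir34c fell furthest, from 1597 to 366 CPM. Mir449a went the other way, from 55.4 to 63.9 CPM, and the others were lower in replicate 2. In replicates 1 and 2, oligodendrocyte markers summed to 6822 and 5391 CPM, and the endothelial Mir126a stood at 21890 and 29026 CPM. Microglia and leukocyte markers summed to 993 and 884 CPM, and erythroid markers to 122 and 120 CPM. The part of all these markers in the results below was not tested. All values are reads, not molecules, since ligation can favour some microRNAs.

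Together the 9 genes held 18.3% of the sense counts in replicate 1 and 17.4% in replicate 2, a mean of 17.8% ± 0.594 (SD, n = 2). Mir139 and Mir744 alone made up 61.9% of that part in replicate 1 and 61.3% in replicate 2. The other 7 genes thus shared the remainder, and Mir425 stood far below them all.

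Mir139 (ENSMUSG00000065446.1) was the most abundant of them. It is studied as a brake on growth signalling in tumours. Replicate 1 held 169513 reads of it, which is 75144 CPM with an exact 95% Poisson interval of 74787 to 75503. Replicate 2 held 318937, which is 70542 CPM with an interval of 70298 to 70788. It ranked 2 and 3 among all genes, between Mirlet7b (75005 CPM) and Mirlet7i (58794 CPM) by mean level. The libraries lay close together, at 72843 ± 3254 CPM (SD, n = 2), though their counting intervals did not overlap.

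Mir744 (ENSMUSG00000076460.1), reported to act on the growth factor TGFB1 in human cells, came next. Its levels were 37929 and 36224 CPM in replicates 1 and 2, a mean of 37076 ± 1206 CPM (SD, n = 2). Its rank was 9 in replicate 1 and 5 in replicate 2, although its own level was slightly lower in replicate 2. The genes on either side of its mean level were Mirlet7i and Mir127 (35995 ± 6023 CPM).

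Mir191, Mir328, Mir151, Mir22 and Mir330 formed a middle group between 8350 and 15728 CPM. Mir191 (ENSMUSG00000105497.1), often taken as a reference microRNA in PCR assays, stood at 15728 and 13654 CPM in replicates 1 and 2. Mir328 (ENSMUSG00000070130.1), reported in mouse to act on Bace1, which cuts the amyloid precursor protein, stood at 14838 and 10262 CPM. Mir151 (ENSMUSG00000065612.1), linked to cell movement in human liver cancer, stood at 13170 and 11515 CPM. These 3 genes were all higher in replicate 1. Mir22 (ENSMUSG00000065529.1), known for its part in heart growth in mouse, stood at 8350 and 13430 CPM and so was higher in replicate 2. Mir330 (ENSMUSG00000065543.1), reported to act on the cell cycle factor E2F1 in human cells, was nearly level, at 9687 and 9203 CPM. Each of these 5 overlapped in range with the next in the order Mir191, Mir328, Mir151, Mir22, Mir330. Within each library, part of that order held. Mir191 was the highest of them in both, though only 1.02-fold above Mir22 in replicate 2, and Mir328 and Mir151 exceeded Mir330 in both. Mir328 and Mir151 changed places between the libraries, as did Mir22 with Mir328, Mir151 and Mir330, so their order is not fixed. Mir151 exceeded Mir22 1.58-fold in replicate 1 and lay below it in replicate 2, at a ratio of 0.857.

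Mir652 (ENSMUSG00000076011.1) closed the abundant set at 6649 and 8762 CPM, below both Mir330 values. Mir425 (ENSMUSG00000065579.1) was at 1061 CPM in replicate 1 (95% Poisson interval 1019 to 1104) and 561 CPM in replicate 2 (539 to 583). Of the 9 genes, 8 ranked among the first 27 of all genes, but Mir425 ranked 103 by mean level. For Mir425 the values therefore go against the word abundant. Its neighbours by mean level were Mir31 (821 CPM) and Mir28a (808 CPM).

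**Figure D1:**
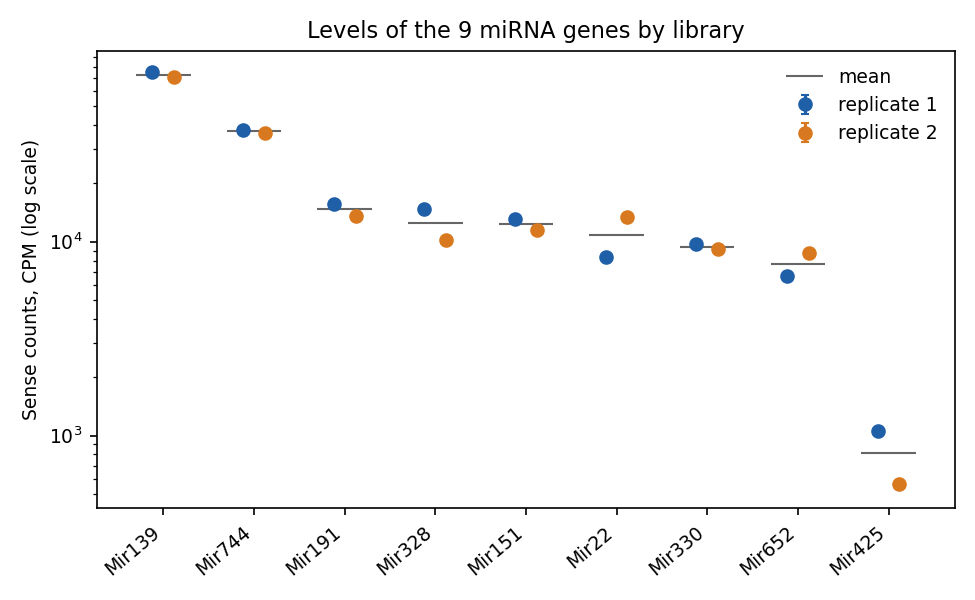
Sense-strand level of each of the 9 genes in CPM (log axis), with replicate 1 in blue, replicate 2 in orange, the mean as a grey line, and exact 95% Poisson intervals that are mostly smaller than the points. Mir139 and Mir744 stand above the middle group, Mir425 stands alone below it, and Mir22 and Mir652 are the genes with the higher value in replicate 2.

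Of the genes around the 9 in the order of mean level, some moved more than the gene they flank and some less. Mir23b stood above Mir191, at 17111 and 22843 CPM, and Mir125a below it, at 9945 and 15900 CPM. Mir128-1 (10436 and 14980 CPM) stood above Mir328, and Mir26b (10154 and 12220 CPM) below Mir151. These 4 neighbours were higher in replicate 2, while Mir191, Mir328 and Mir151 were lower. Mir137 (10105 and 11969 CPM) stood above Mir22, and Mir411 (10792 and 7875 CPM) below Mir330. Mir143 (7538 and 9071 CPM) and Mir770 (9210 and 6093 CPM) enclosed Mir652, the former higher and the latter lower in replicate 2.

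Host transcripts. On the same strand, 8 of the 9 hairpins lay in an annotated host in GENCODE M21 (mm10), a count that the choice of hosted genes favours. They had 9 same-strand host genes between them, 7 protein-coding and 2 noncoding. On that strand, none of those hosts held an annotated microRNA gene other than these. Host messenger RNAs cannot be read from libraries of RNA under 30 nt, so no host level is set beside the microRNA levels.

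Mir139 lies at chr7:101475376-101475443, plus strand, in intron 2 of Pde2a, whose protein breaks down cyclic nucleotides. It also falls in intron 3 of the overlapping gene Gm45837, and in both it lies 5927 bases before the next exon. Mir744 lies at chr11:65734733-65734832, minus strand, in intron 3 of Map2k4, a kinase that activates stress-signalling kinases, 359 bases after the exon before it. Mir151 lies at chr15:73254815-73254882, minus strand, in intron 22 of Ptk2, which encodes focal adhesion kinase. It also lies opposite intron 1 of 1700085D07Rik, a gene annotated as antisense on the plus strand. Mir652 lies at chrX:142739000-142739097, plus strand, in intron 2 of Tmem164, an intron of 69090 bases. These 4 hairpins are purely intronic: no annotated transcript of their hosts has an exon there.

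Mir330 lies at chr7:19181465-19181562, plus strand, in Eml2, which encodes a microtubule-associated protein. It is in intron 1, of only 485 bases, in the transcript drawn, and 84 of its 98 bases overlap an exon in 1 of 8 Eml2 transcripts. Mir22 lies at chr11:75463716-75463810, plus strand, in an exon of both transcripts of the noncoding Mir22hg, and of 1 of 4 transcripts of the protein-coding Tlcd2. Mir328 is the gene with no same-strand host. It lies at chr8:105308364-105308460, minus strand, opposite Elmo3, a gene for an engulfment and cell movement protein. Of its 97 bases 12 lie opposite exon 14 of Elmo3 and 85 opposite the intron before that exon. In the column of the opposite strand Mir328 had 0 counts in both libraries, so no small RNA of the Elmo3 strand was counted there. The hairpin gene Gm27320, nearby at chr8:105307792-105307900 on the minus strand, had 0 sense counts in both libraries.

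**Figure D2:**
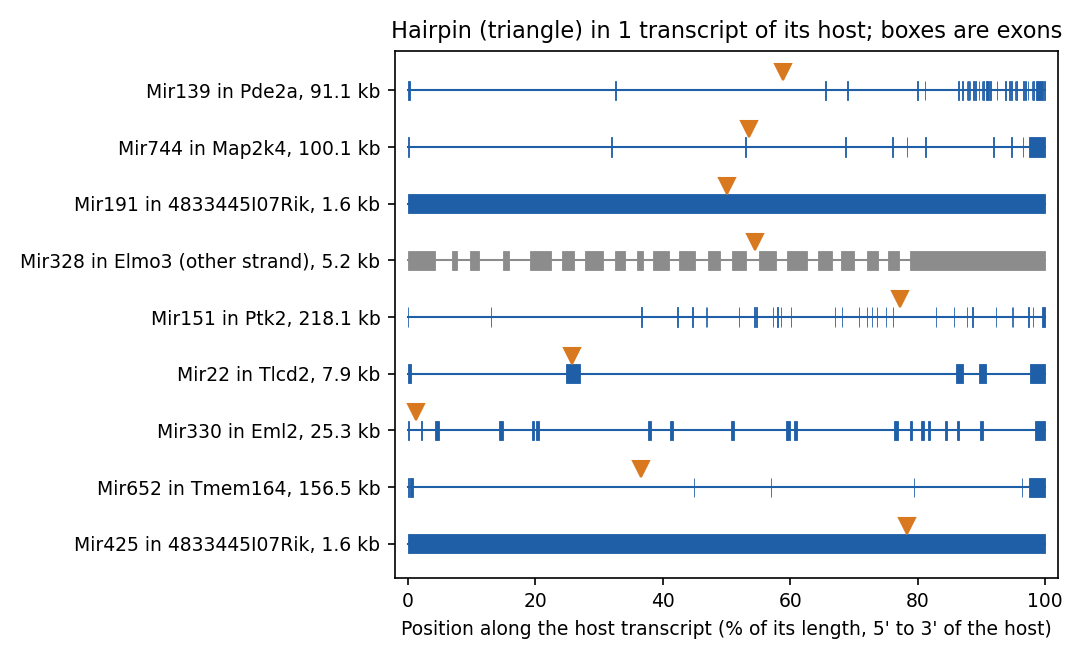
Position of each hairpin (triangle) along 1 transcript of its host, in percent of the transcript's genomic length from 5′ to 3′ of the host, with exons as boxes and the length in kb beside the name. Mir139, Mir744, Mir151, Mir652 and Mir330 fall in introns of the transcripts drawn, and Mir191, Mir425 and Mir22 in exons. Mir328 falls on the other strand of Elmo3 (grey). Gm45837, Mir22hg and 1700085D07Rik are not drawn.

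Mir191 and Mir425 share 1 host, and the files count them very unequally. Their hairpins lie on the plus strand at chr9:108568319-108568392 and chr9:108568777-108568861, 384 bases apart, in the noncoding gene 4833445I07Rik. Both fall in the single exon of 1 of its 2 transcripts. The other transcript also spans Mir191, but not in an exon, and does not span Mir425. The nearest protein-coding gene to Mir425 was Dalrd3, 1025 bases away on the same strand. The hairpins are shown with both mature arms in capitals, since they are the only pair of the 9 genes in 1 host.

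Mir191 hairpin: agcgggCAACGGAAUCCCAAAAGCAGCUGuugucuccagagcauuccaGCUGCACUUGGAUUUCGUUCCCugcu
Mir425 hairpin: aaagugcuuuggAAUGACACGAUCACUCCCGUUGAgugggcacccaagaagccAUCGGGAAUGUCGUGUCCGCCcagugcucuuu

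In replicate 1 there were 35479 counts of Mir191 and 2393 of Mir425, a ratio of 14.8. Replicate 2 held 61733 and 2535, a ratio of 24.4. Mir425 was thus 6.32% of the pair's counts in replicate 1 (exact 95% binomial interval 6.08 to 6.57) and 3.94% in replicate 2 (3.80 to 4.10). The ratio does not depend on the scaling of the libraries, and it differed 1.64-fold between them, beyond counting error. Mir191 was the higher of the pair in both. For scale, 209 pairs of same-strand hairpins starting within 10 kb of each other, both at 100 CPM or more, had a median level difference of 3.66-fold, and 41 pairs (19.6%) were at least as unequal. Their ratios changed by a median of 1.59-fold between the libraries, and 96 (45.9%) by at least as much as this pair. Many of those pairs share a gene or a cluster, so these shares are a description.

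Mir191 also depends on how strands are counted. The hairpin gene Gm24083 is annotated over it on the minus strand, and all 35479 and 61733 reads of Mir191 recur as antisense counts of Gm24083, which had 0 sense counts. In the unstranded column Mir191 reads 0 in both libraries. For the other 8 genes the unstranded and sense counts were the same, and all 9 had 0 antisense counts.

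Between the libraries the 9 genes differed by less than 2-fold, and 7 of them by less than 1.5-fold. The log2 ratio of replicate 2 over replicate 1, with a pseudocount of 0.5 counts, was -0.07 for Mir744, -0.07 for Mir330 and -0.09 for Mir139. Those 3 were the closest to equal. It was -0.19 for Mir151 and -0.20 for Mir191, against 0.40 for Mir652 and -0.53 for Mir328. Mir22, at 0.69, and Mir425, at -0.92, moved furthest, in opposite directions. All lay well inside the full range of the 495 genes tested, those whose mean reached 1 CPM, -5.56 to 3.62. Mir328, Mir22 and Mir425 nevertheless lay above the median absolute log2 ratio of those genes, 0.51. In bulk tissue, fewer cells of a type and less RNA per cell cannot be told apart.

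Of all 495 genes tested, 57.2% lay within 1.5-fold, and of the 96 at 1000 CPM or more 65.6% did, beside 7 of the 9 here. The median absolute log2 ratio was 0.20 over the 9 genes, 0.51 over all genes tested and 0.41 over the 96. Abundance chose the 9 genes, so the 96 are the nearer background, and no test was made of that difference. The reads of each gene were split between the libraries and compared by an exact binomial test (two-sided, p-values adjusted by Benjamini-Hochberg over the 495 genes). With adjusted p under 0.05 and 2-fold or more required, 0 of the 9 genes were called. The background was 17.6%, 87 genes, of which 19 were higher and 68 lower in replicate 2. That test compares the reads of these 2 libraries and has no replicate check. Without the fold requirement, all 9 passed, the largest adjusted p being 3.32e-09 for Mir330, against 53.5% of the genes tested. Of the 96 genes at 1000 CPM or more, the nearer background, 89 passed without it and 15 were called with it. These small differences exceeded counting error at this depth.

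Directions near 0 depend on the scaling. The median log2 ratio of the 495 genes was -0.19, and edgeR's TMM factors raise every ratio by 0.12 and DESeq2's size factors by 0.19. On the library sums 2 of the 9 genes were higher and 7 lower in replicate 2, but with either other scaling 5 were higher and 4 lower, because Mir139, Mir744 and Mir330 changed sign. Over all genes the called split went from 19 higher and 68 lower to 26 and 51 with TMM and 27 and 48 with DESeq2's factors. Mir22 and Mir652 were higher, and Mir425 and Mir328 lower, under all 3 scalings. Relative to the median of all genes tested, Mir139, Mir744 and Mir330 lay at 0.10, 0.12 and 0.11, Mir151 and Mir191 at -0.0049 and -0.02, and Mir22 and Mir425 at 0.87 and -0.73.

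**Figure D3:**
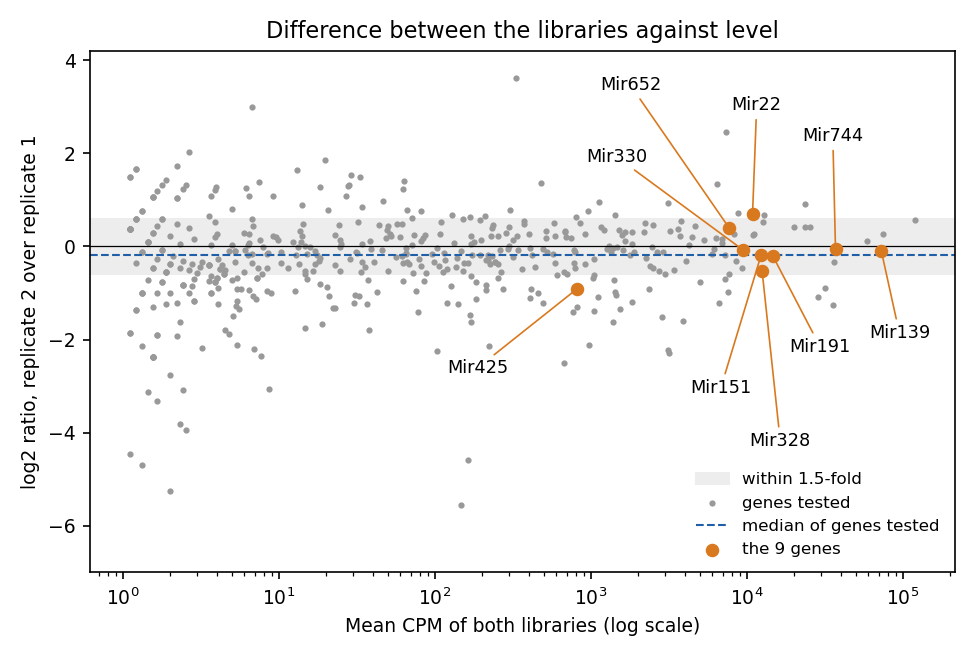
Log2 ratio of replicate 2 over replicate 1 against the mean level in CPM (log axis) for the 495 genes tested (grey) and the 9 genes (orange), with the band within 1.5-fold shaded and the median of all genes dashed at -0.19. Mir22 and Mir425 are the members outside the band.

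Ratios between the 9 genes within a library do not depend on any scaling. Mir139 outnumbered Mir744 1.98-fold in replicate 1 and 1.95-fold in replicate 2, a change of 1.02-fold. Mir744 outnumbered Mir330 3.92-fold and 3.94-fold. Mir191 outnumbered Mir151 1.19-fold in both. Among Mir139, Mir744, Mir191, Mir151 and Mir330, each from a different host, all 10 ratios changed by at most 1.10-fold. These 5 were picked after their values were seen, so the count is a description. Of all 36 pairs, 20 changed by less than 1.5-fold and 3 by 2-fold or more. The 3 were Mir22 against Mir425 (3.04-fold), Mir652 against Mir425 (2.49-fold) and Mir22 against Mir328 (2.33-fold).

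**Figure D4:**
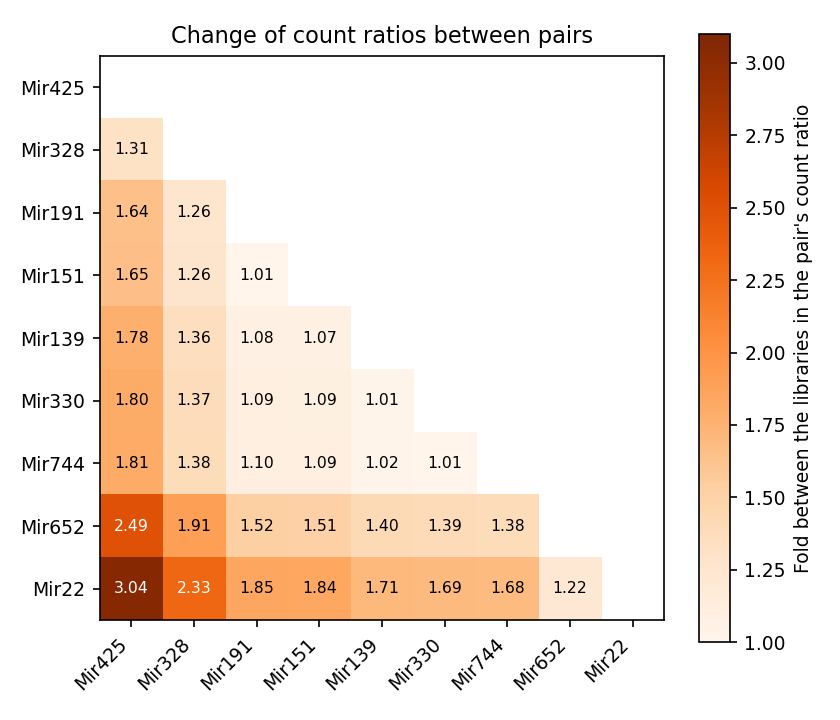
Fold by which the count ratio of each pair of the 9 genes changed between the libraries, with genes ordered by their log2 ratio from Mir425 to Mir22 and darker cells for larger changes. The 5 genes in the middle changed by at most 1.10-fold against each other, and the largest change, 3.04-fold, was that of Mir22 against Mir425.

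The genes are set out here by host class, with no test of the classes. A coding host took precedence over a noncoding one, and an exon in any 1 transcript made a gene exonic. Mir22 is thus classed by Tlcd2, although it also lies in exons of the noncoding Mir22hg. The 4 genes purely in introns of coding genes (Mir139, Mir744, Mir151 and Mir652) had absolute log2 ratios from 0.07 to 0.40. Mir330, exonic in 1 of 8 transcripts, and Mir191, exonic in 1 of 2, stood at 0.07 and 0.20. The exonic Mir22 and Mir425, the genes beyond 1.5-fold, stood at 0.69 and 0.92. Mir328, with a gene on the other strand only, stood at 0.53. Among all genes at 1000 CPM or more, 26 of 34 (76.5%) in introns of coding genes lay within 1.5-fold, 5 of 11 (45.5%) in exons of coding genes, 11 of 16 (68.8%) in exons of noncoding hosts, 6 of 10 (60.0%) in introns of noncoding hosts, 4 of 5 (80.0%) with a gene on the other strand only, and 11 of 20 (55.0%) in no gene. Their median absolute log2 ratios were 0.42, 0.68, 0.26, 0.48, 0.34 and 0.41 in that order.

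**Figure D5:**
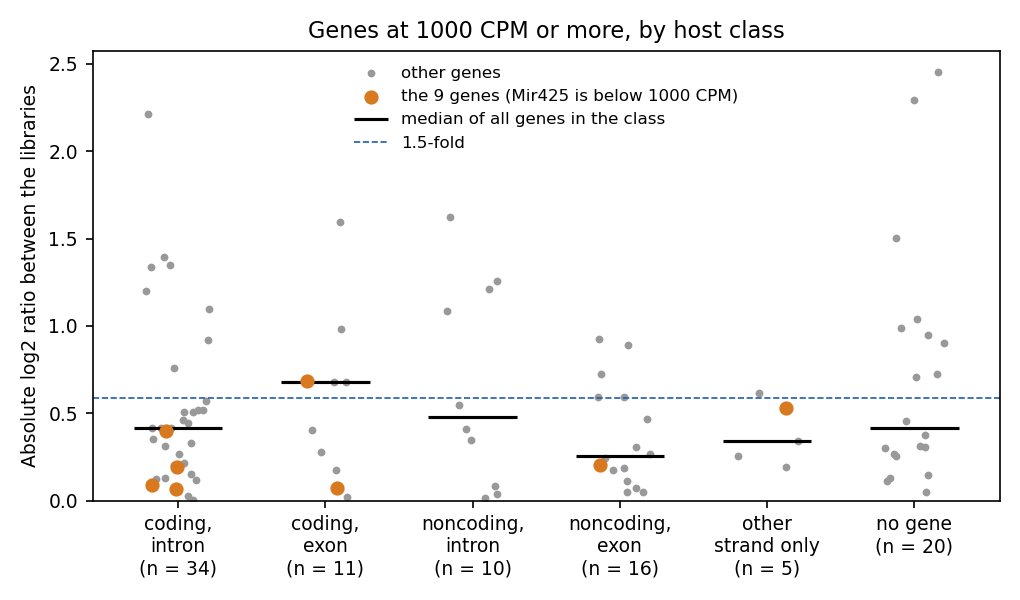
Absolute log2 ratio between the libraries for the 96 genes at 1000 CPM or more by host class, with 8 of the 9 genes in orange, other genes in grey, class medians as black lines and 1.5-fold dashed. Of the orange genes 6 sit below their class median, Mir22, classed by its coding host, just above it and Mir328 further above it.

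A list of 25 other single-locus microRNAs known from host transcripts gives a second measure. All 25 were tested, at mean levels from 15.1 to 5988 CPM, so they lie below most of the 9 genes. They held 4.58% of the counts in replicate 1 and 3.86% in replicate 2. The median absolute log2 ratio was 0.38, 17 of 25 (68.0%) lay within 1.5-fold, and 2 were called, both lower in replicate 2. These were Mir874, at 5172 and 1114 CPM, and Mir423, at 2556 and 1111 CPM. The most abundant were Mir324 (6348 and 5629 CPM), Mir149 (6263 and 3696 CPM), Mir361 (3952 and 5372 CPM) and Mir335 (3456 and 4016 CPM). Mir345 (log2 ratio -0.08) and Mir872 (0.12) differed least. The abundant Mir149 and Mir342 (3090 and 1632 CPM) thus moved about as far as Mir22 and Mir425, on the side of Mir425.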

How the data were processed

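The authors deposited raw counts per microRNA gene, 1 file per library, with columns for no strand, the sense strand and the antisense strand, after 4 rows of totals. Per the labels and the accompanying README files, the build was mm10, annotated by GENCODE M21. Aligner and counter: not given in the sources used here. The rows of totals entered neither library sizes nor tests. They hold 69.8% of the reads of replicate 1 and 62.8% of replicate 2.

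All 2202 gene IDs were named from GENCODE M21. Sense counts were scaled to CPM on the library's gene sum. Calls used the exact binomial test (scipy 1.17.1) over the 495 genes whose mean reached 1 CPM. edgeR 4.0.16 and DESeq2 1.42.0 gave other scalings and exactTest. With 2 libraries in 1 group, no replicated test between them is possible. The calls were tested on simulated data drawn with counting error only. That test therefore cannot show how the calls behave under further spread between libraries. Intervals and floors cover counting error only, since PCR reads are not independent molecules. The B6-based reference can cost reads of CAST alleles.

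The genes, lists, tests and alternatives were chosen with earlier results of these data known. The text names the 9 genes, their neighbours in mean CPM, hairpins within 10 kb, genes sharing a seed (bases 2 to 8) and tissue markers. Of the 25 listed microRNAs it names the 4 most abundant and the 2 that moved most and least. Mir342, and the separate values of Mir34c, Mir449a and the neuronal markers, were added after they were seen.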

Additional observations from a re-analysis of the deposited data

Results flagged for a closer look

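The antisense column, which enters no level, ratio or call above, held 35479 counts at Gm24083 in replicate 1 and 61733 in replicate 2, above the 3 counts that a count of 0 allows. These are the same numbers as the sense counts of Mir191, which lies on the other strand within Gm24083.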

How the results depend on the processing

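The share of the counts held by the 9 genes was 17.8%. It ranged from 17.4% to 18.3% when either library was left out, fell to 5.99% with all reads of a library as the denominator, and to 10.6% without Mir139. The number of the 9 genes called was 0, and it stayed 0 with TMM, with DESeq2's size factors, in the unstranded column (which loses Mir191), without a filter and with a minimum of 10 CPM. It rose to 2, Mir22 and Mir425, when 1.5-fold was enough for a call. The number of all genes called, 87, became 53 with a minimum of 10 CPM, which tests fewer genes, 141 at 1.5-fold and 3 by edgeR's exactTest, and lay between 75 and 82 under the other 4 alternatives. That exactTest took its error from the same difference between the 2 libraries that it then tested, so its count of 0 among the 9 genes (0 at an unadjusted p under 0.05) says nothing about them. The number within 1.5-fold, 7 of 9, was 7 with TMM, 6 with DESeq2's factors and 6 of 8 in the unstranded column. A pseudocount of 5 counts changed the direction of 0 of the 9 ratios. No paired analysis was possible because both libraries belong to 1 group. With 2 libraries, the spread of each gene rests on a single difference, and depth was not the limit for these genes, whose smallest count was 2393.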
